A study of Homo sapiens with 6 samples.

Results

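The cyclophilins are peptidyl-prolyl cis-trans isomerases, enzymes that turn the bond before a proline in a protein chain and that share a domain able to bind the immunosuppressant cyclosporin A in many members. PPIA (cyclophilin A) is the abundant cytosolic form, PPIB and PPIC enter the secretory pathway, PPID (cyclophilin 40) works with HSP90, PPIF (cyclophilin D) sits in the mitochondrial matrix, and PPIE, PPIG, PPIH, PPIL1 and PPWD1 are nuclear and are found with the splicing machinery. Transcripts of these 10 genes were examined in SK-BR-3 cells with lowered GRB2, an adaptor protein that links receptor tyrosine kinases such as HER2 to RAS. The family was chosen by its best known member, because PPIA was lower after the siRNA. The values of PPIA are therefore given as a description, with no test. All 10 genes were found among the 30327 genes of the count table, and all 10 were among the 15801 genes with enough reads to test.

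SK-BR-3 is an established breast cancer cell line that overexpresses HER2. Cells given a nontargeting control siRNA (si_NC, 3 libraries) were compared with cells given an siRNA against GRB2 (si_GRB2, 3 libraries). Both groups were transfected in the same way, and no time of collection is given for the sequenced RNA. The study names more than one siRNA against GRB2, and the labels do not say which was used. The titles of the treated libraries speak of GRB2 overexpression, as does the study's list of groups. The descriptions of these libraries say si_GRB2 and the study's results speak of a knockdown, so GRB2 itself was examined first. GRB2 CPM (read counts scaled to library size, with TMM factors) were 123.9, 129.5 and 125.7 in si_NC and 27.8, 28.1 and 29.6 in si_GRB2. GRB2 was thus lower in every library described as si_GRB2. Its difference from si_NC was −2.15 on the log2 scale (SE, the standard error, 0.04, adjusted p = 3.87e-15). Unless an alternative fit is named, p-values of genes are from the quasi-likelihood test of edgeR, adjusted over all 15801 genes tested. Those of an alternative fit are adjusted over the genes which that fit tested.

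The libraries held 24810378 to 28532480 gene reads, and the common biological coefficient of variation was 3.75%. Nothing in the labels says that the 3 libraries of a group came from separate cultures, so p-values measure only the spread between these libraries. Of the 6 markers of a luminal HER2 line, 5 were tested and CDH1 had 9 reads in all 6 libraries together. The summed level of these markers was 17088 to 17463 CPM in si_NC and 14289 to 14866 CPM in si_GRB2. KRT18 (log2 fold change −0.55, adjusted p = 3.72e-11) and EPCAM (−0.55, adjusted p = 8.94e-10) were lower and ERBB2 (0.24, adjusted p = 1.14e-06) was higher in the edgeR test. The 10 markers of immune, endothelial, fibroblast and basal cells summed to 23.2 to 24.1 CPM in si_NC and 14.0 to 14.8 CPM in si_GRB2, and 1 to 3 of the 10 had no read in a given library. The basal keratin KRT5 made most of that sum, at 17.1 ± 0.273 in si_NC and 8.43 ± 0.363 in si_GRB2 (CPM, mean ± SD, n = 3), while PTPRC, PECAM1 and DCN each had 2 or 3 reads in all 6 libraries together. Several of these markers differed between the groups, not all in the same direction, and their part in any result below was not tested. In bulk RNA, fewer cells that express a gene and less RNA of it per cell cannot be told apart.

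The results turn on PPIA and PPWD1, the only members lower by more than 1.5-fold, and the sequences shown are theirs. PPIA (ENSG00000196262.15) lies on the plus strand of chromosome 7 of GRCh38 from 44796680 to 44824564, and PPWD1 (ENSG00000113593.12) on the plus strand of chromosome 5 from 65563236 to 65587549. RefSeq (GRCh38.p14) gives these promoters, from 250 bases before its own start of the gene to 50 bases after it. In PPWD1 that start lies downstream of the gene start given above, which is from GENCODE. A CCAAT box (CCAAT, or ATTGG on the other strand) and a TATA box (TATAAA, or TTTATA on the other strand) are in capitals. The PPIA promoter is chr7:44796431-44796730 and the PPWD1 promoter chr5:65563046-65563345, both on the plus strand and written 5′ to 3′.
PPIA: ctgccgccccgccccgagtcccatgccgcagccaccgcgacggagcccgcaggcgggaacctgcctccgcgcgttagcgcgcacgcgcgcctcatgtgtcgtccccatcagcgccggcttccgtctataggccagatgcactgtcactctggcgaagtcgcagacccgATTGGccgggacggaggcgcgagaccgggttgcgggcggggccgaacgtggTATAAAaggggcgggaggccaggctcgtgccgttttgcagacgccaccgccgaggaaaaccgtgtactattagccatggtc
PPWD1: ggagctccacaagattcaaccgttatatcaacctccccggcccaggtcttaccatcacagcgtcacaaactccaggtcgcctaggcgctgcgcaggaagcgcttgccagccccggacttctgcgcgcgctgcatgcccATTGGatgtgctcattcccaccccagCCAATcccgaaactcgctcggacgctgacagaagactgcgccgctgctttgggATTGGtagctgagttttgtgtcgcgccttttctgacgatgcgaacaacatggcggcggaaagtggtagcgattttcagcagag
The PPIA promoter held 1 CCAAT box and 1 TATA box, and its GC content was 68.7%. The PPWD1 promoter held 3 CCAAT boxes and no TATA box, at a GC content of 58.3%. RefSeq promoters were found for 8 of the 10 members. A CCAAT box was in 5 of those 8 (PPIA, PPIB, PPIF, PPIL1 and PPWD1) and in 34.6% of all 35116 promoters, and a TATA box was in PPIA alone of the 8 and in 11.5% of all promoters. These matches are a description of the letters in the windows.

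The guide strand of the siRNA given in the study's methods pairs, through its positions 2 to 8, with the 7 bases ACAGATC. The 3′ UTRs of the canonical GENCODE 44 transcripts were searched for these bases on the sense strand. PPIA and PPWD1 each held 1 match and the other 8 members held none. The surrounding 30 bases are shown because these are the members with the largest differences, with the matched bases in capitals. The PPIA site is at chr7:44802020-44802049 and the PPWD1 site at chr5:65587474-65587503, both on the plus strand of GRCh38 and written 5′ to 3′.
PPIA: cctgggtgttcACAGATCttgtgtctcaaa
PPWD1: ttgctgaatatACAGATCatgtttcaaaga
The 3′ UTR was 1695 bases long in PPIA and 153 bases long in PPWD1, and those of the other members ran from 196 bases in PPIH to 3883 bases in PPIG. Of 10251 tested genes with a 3′ UTR, 806 (7.86%) held a match. The part of these matches in the values below was not tested.

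PPIA, which in complex with cyclosporin A inhibits the phosphatase calcineurin and which is a common reference gene in RT-PCR, was among the most abundant mRNAs of these cells. By CPM, which do not divide by gene length, it ranked 12 of all genes in si_NC. By the authors' FPKM it ranked 54. In CPM, si_NC gave 4225, 4359.7 and 4291 for PPIA, and si_GRB2 gave 2870.3, 2819.8 and 2877. Every si_GRB2 library was below every si_NC library, and the gap between the groups was many times the spread within them. The means were 4292 ± 67.3 and 2856 ± 31.2 CPM (SD, n = 3), a difference of −0.59 on the log2 scale (SE 0.02). PPIA took 0.417% to 0.425% of the counted reads in si_NC and 0.287% to 0.292% in si_GRB2. In the authors' FPKM, which divide by gene length, PPIA was at 485.4, 511.4 and 528.9 in si_NC and at 339.5, 351.8 and 354.7 in si_GRB2, so the groups were apart on that scale too. The difference lay close to the 1.5-fold limit that the study sets for a differentially expressed gene. It fell short of that limit without si_NC replicate 2 and without si_GRB2 replicate 2, each time with a log2 fold change of −0.58. It also fell short of it by library totals without TMM (−0.54) and by both fits on log2 of FPKM plus a pseudocount (−0.54).

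**Figure D1:**
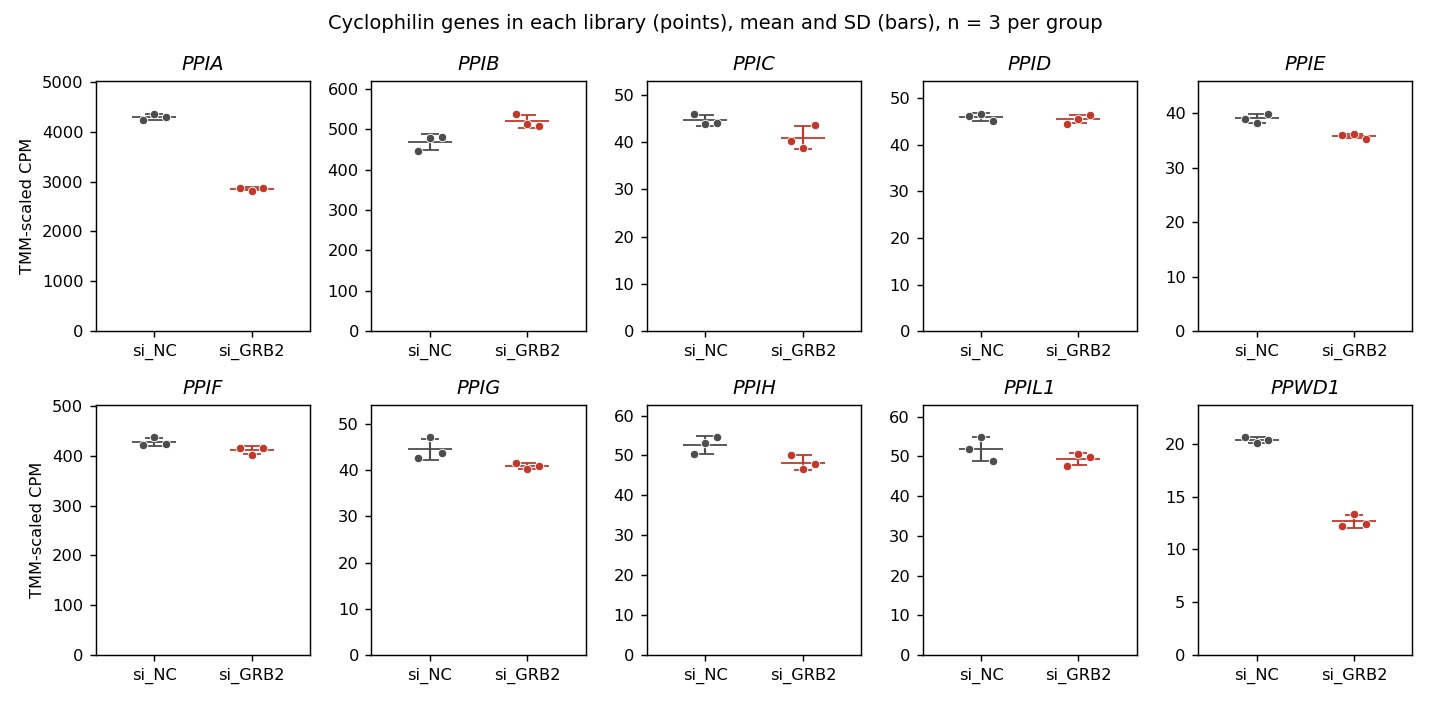
TMM-scaled CPM of the 10 cyclophilin genes in the 3 si_NC and 3 si_GRB2 libraries, each axis starting at 0, with points for libraries and bars for the mean and SD (n = 3). PPIA and PPWD1 are lower in si_GRB2 with a clear gap, PPIB is higher, and the remaining 7 genes differ little against their level.

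PPIA has many processed pseudogenes, and reads can be shared with them, so the values of near-identical copies are uncertain. The count table listed 50 genes named as PPIA pseudogenes, which together held 6315 reads, or 1.10% of the 572466 reads of PPIA. PPIAP22 (ENSG00000198618.5, plus strand of chromosome 21 from 18857779 to 18858276) held 87.6% of them and was 99.6% identical to PPIA over 498 aligned bases. Its level was 39.4, 36.8 and 46.5 CPM in si_NC and 29.3, 28.5 and 26.2 CPM in si_GRB2. These groups did not overlap either, and the log2 fold change of PPIAP22 was −0.55 (SE 0.07), near that of PPIA. The other 3 pseudogenes with enough reads to test, PPIAP31, PPIAP11 and PPIAP29, had log2 fold changes of −0.57, −0.48 and −0.46 at mean levels of 1.14 to 2.49 CPM in si_NC. With the reads of all pseudogenes added to PPIA, its log2 fold change was still −0.59. Only uniquely mapped reads were counted, so reads that fit PPIA and a copy equally well are not in this sum, and it cannot show their part. The retrogene copies PPIAL4A, PPIAL4C, PPIAL4F and PPIAL4G had 1 to 7 reads each in all 6 libraries together and were not tested.

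PPWD1, a cyclophilin with WD40 repeats that is found in spliceosomes, had the lowest CPM of the 10 members and the largest difference. It had 20.6, 20.1 and 20.4 CPM in si_NC and 12.2, 13.3 and 12.4 CPM in si_GRB2. The 3 si_GRB2 libraries were well below the 3 si_NC libraries. PPWD1 fell from 20.4 ± 0.261 to 12.6 ± 0.601 CPM (mean ± SD, n = 3), with a log2 fold change of −0.69 (SE 0.06, 95% interval −0.82 to −0.55, edgeR adjusted p = 4.82e-07). These levels rest on 307 to 578 reads per library, whereas those of PPIA rest on 72231 to 120367. The call of PPWD1 held in all 15 alternative fits, with log2 fold changes from −0.73 to −0.50, the latter on log2(FPKM + 1) and short of 1.5-fold. CENPK, a centromere protein gene, starts 68 bases from PPWD1 on the opposite strand. It was at 12.8 ± 1.34 in si_NC and 11.7 ± 0.693 in si_GRB2 (CPM, mean ± SD, n = 3), with overlapping groups and a log2 fold change of −0.12 (SE 0.09, edgeR adjusted p = 0.317).

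The secretory cyclophilins went in different directions. PPIB (cyclophilin B), which resides in the endoplasmic reticulum and takes part in collagen folding, was at 446.2, 478.7 and 480.2 CPM in si_NC and at 538.2, 512.9 and 507.8 CPM in si_GRB2. All si_GRB2 libraries were above all si_NC libraries. PPIB rose from 468 ± 19.2 to 519.6 ± 16.3 CPM (mean ± SD, n = 3), or by 0.15 on the log2 scale (SE 0.03, 95% interval 0.08 to 0.22, edgeR adjusted p = 0.00174). PPIC (cyclophilin C), a lower expressed relative in the same pathway, was at 46.0, 43.9 and 43.99 CPM in si_NC and at 40.3, 38.9 and 43.6 CPM in si_GRB2. Its si_GRB2 values were all below the si_NC values, though the nearest pair of libraries nearly met. The log2 fold change of PPIC was −0.13 (SE 0.05, 95% interval −0.23 to −0.03) and did not pass the test (edgeR adjusted p = 0.0548), though it passed in 5 of 15 alternative fits.

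Neither the HSP90 co-chaperone nor the mitochondrial cyclophilin passed the test. PPID, which binds HSP90 through its TPR repeats, was at 46.1, 46.6 and 45.0 CPM in si_NC and at 44.5, 45.6 and 46.3 CPM in si_GRB2, and the groups overlapped. Its log2 fold change was −0.01 (95% interval −0.10 to 0.07, edgeR adjusted p = 0.84). PPIF, which regulates opening of the mitochondrial permeability transition pore, was at 422.4, 436.9 and 422.9 CPM in si_NC and at 415.8, 402.1 and 416.6 CPM in si_GRB2. Its si_GRB2 values were all below the si_NC values. The difference was small, with a log2 fold change of −0.05 (95% interval −0.11 to 0.0011, edgeR adjusted p = 0.134).

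Besides PPWD1, 4 members belong to the nucleus and the spliceosome, and all had log2 fold changes between −0.13 and −0.07. PPIH, a cyclophilin of the U4/U6.U5 tri-snRNP, was at 50.3, 53.2 and 54.5 CPM in si_NC and at 50.2, 46.6 and 47.9 CPM in si_GRB2. PPIE, which carries an RNA recognition motif, was at 38.9, 38.3 and 39.96 CPM in si_NC and at 36.0, 36.2 and 35.4 CPM in si_GRB2. In both genes the groups did not overlap, though in PPIH the nearest pair of libraries nearly met. PPIH (log2 fold change −0.13, SE 0.04, adjusted p = 0.0391) and PPIE (−0.12, SE 0.04, adjusted p = 0.0355) passed the edgeR test only narrowly. PPIE lost its call in 11 of 15 alternative fits and PPIH in 9 of 15. Leaving out single libraries gave adjusted p values up to 0.0912 for PPIE (without si_NC replicate 3) and up to 0.17 for PPIH (without si_GRB2 replicate 2) in the edgeR test. Each library but si_NC replicate 2 was needed for the call of PPIE, and each but si_NC replicate 1 and si_GRB2 replicate 1 for that of PPIH. With the fit on library totals, their log2 fold changes were −0.07 and −0.08.

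PPIG, which has an arginine and serine rich tail and binds the phosphorylated tail of RNA polymerase II, was at 42.6, 47.1 and 43.8 CPM in si_NC and at 41.6, 40.2 and 41.0 CPM in si_GRB2. PPIL1, a small cyclophilin of the activated spliceosome, was at 51.8, 54.8 and 48.9 CPM in si_NC and at 47.7, 50.6 and 49.8 CPM in si_GRB2. The groups were apart for PPIG and overlapped for PPIL1. Neither passed the edgeR test, at log2 fold changes of −0.12 for PPIG (95% interval −0.22 to −0.02, adjusted p = 0.0572, passed in 3 of 15 alternative fits) and −0.07 for PPIL1 (95% interval −0.17 to 0.03, adjusted p = 0.301).

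**Figure D2:**
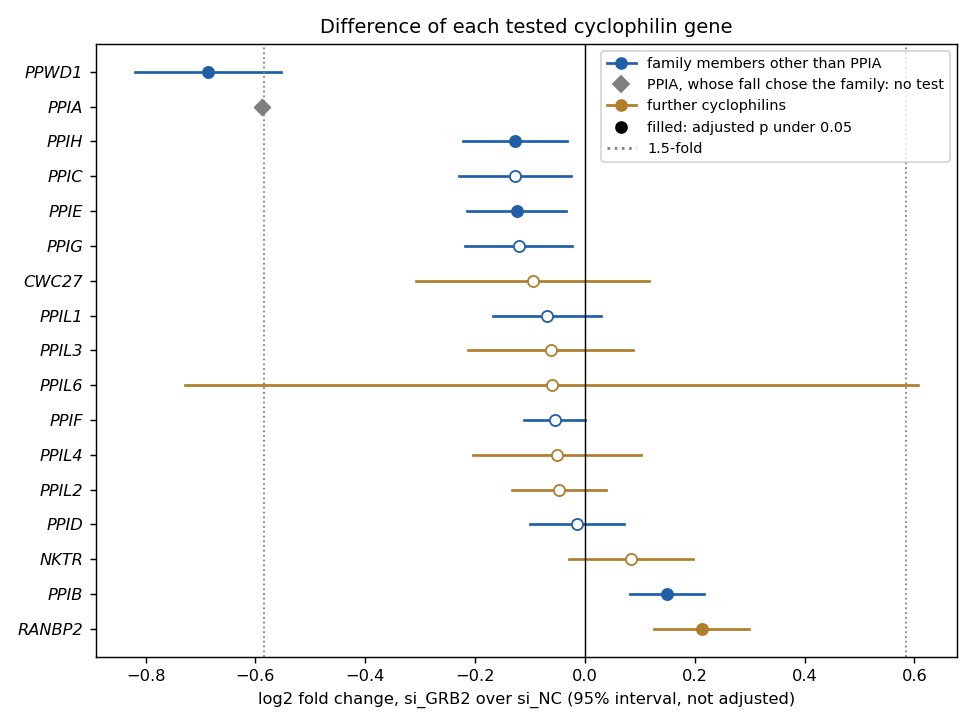
Log2 fold change of si_GRB2 over si_NC for the 17 tested cyclophilin genes, with unadjusted 95% intervals from edgeR's quasi-likelihood fit for all but PPIA. Filled circles have an adjusted p under 0.05, and dotted lines mark 1.5-fold. PPIA is a grey diamond with no interval and no test. PPWD1 and PPIA stand at −0.69 and −0.59, PPIB and RANBP2 at 0.15 and 0.21, and the interval of PPIL6, which has few reads, spans both 1.5-fold lines.

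Over the family, PPIA aside, 1 of 9 members rose (PPIB), 3 fell (PPWD1, PPIE and PPIH) and 5 did not pass. Of all genes tested, 15.2% rose and 15.5% fell at an adjusted p under 0.05, and nothing about the family is read from these shares. With the study's limit of 1.5-fold and an adjusted p under 0.01, PPWD1 was lower and was the only one of these 9 to pass, where 0.829% of all genes were higher and 1.69% were lower. The groups did not overlap, with si_GRB2 lower, in 6 of these 9 members (21.2% of all genes), and with si_GRB2 higher in 1 of 9 (21.1% of all genes). The median log2 fold change was −0.12 over the 10 members, the same without PPIA, and 0.0019 over all tested genes. The 5 members that did not pass ranged from −0.13 to −0.01. Of these, PPIC (−0.13) and PPIG (−0.12) lay close to PPIH (−0.13) and PPIE (−0.12), and PPIL1, PPIF and PPID lay nearer to no difference. By library totals without TMM, which moved the median of all genes by 0.0502, PPIE and PPIH did not pass and PPID had a log2 fold change of 0.04, while 66.5% of all called genes were then higher, against 49.5% with TMM.

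PPIA carried most of the family's reads, and the composition of the family differed between the groups. The family was chosen by the fall of PPIA, so the share and ratios of PPIA below contain that fall and are a description. The 10 members summed to 5390, 5579.5 and 5491 CPM in si_NC and to 4097, 4006 and 4078 CPM in si_GRB2. Without PPIA, the other 9 summed to 1195 ± 27.7 and 1205 ± 20.2 CPM (SD, n = 3), so their sum differed by less than the spread between libraries. PPIB (468 and 520 CPM) and PPIF (427 and 411 CPM) carried most of this sum. It does not show that each gene was level, since 8 of the 9 had a log2 fold change below 0 and PPIB alone was above 0. PPIA made 78.2% ± 0.139 (SD, n = 3) of the members' CPM in si_NC and 70.3% ± 0.248 (SD, n = 3) in si_GRB2. The ratio of PPIA to PPIB reads was 9.17 ± 0.272 in si_NC and 5.50 ± 0.166 in si_GRB2 (mean ± SD, n = 3). That of PPIA to PPIF reads was 10.04 ± 0.0918 (SD, n = 3) and 6.94 ± 0.0619 (SD, n = 3). These ratios are within a library and do not depend on its scaling.

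Levels of different genes can be compared only per length. In the authors' FPKM, the means in si_NC were 509 ± 21.9 for PPIA, 129 ± 4.75 for PPIF, 86.2 ± 6.20 for PPIB, 26.2 ± 1.10 for PPIL1 and 17.2 ± 0.445 for PPIC (SD, n = 3). They were 14.7 ± 0.338 for PPID, 8.32 ± 0.630 for PPIH, 4.33 ± 0.156 for PPWD1, 3.27 ± 0.206 for PPIG and 2.82 ± 0.153 for PPIE (SD, n = 3). No neighbours in this order overlapped between libraries. The order depends on the length used. The FPKM correspond to a length in proportion to the union of all annotated exons of a gene, which is 6780 bases in PPIA against 2237 in its canonical transcript, and 5095 against 754 bases in PPIH. Per kilobase of the GENCODE canonical transcript, PPIA had 1919 CPM and remained first, but PPIB (524.5 CPM per kb) stood above PPIF (194.6), and PPIH (69.9) moved from place 7 to place 4. PPIL1 (34.2 CPM per kb) and PPIC (32.7) then did not differ beyond their spread.

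PPWD1 also changed its place in the order. It was in place 8 by FPKM in si_NC. In si_GRB2 it was in place 9 at 2.77 ± 0.196 FPKM (SD, n = 3), where it overlapped PPIE at 2.67 ± 0.0802 FPKM (SD, n = 3). Per kilobase of canonical transcript it was in place 8 in si_NC at 9.66 ± 0.124 CPM per kb (SD, n = 3), and last in si_GRB2 at 5.995 ± 0.285 CPM per kb (SD, n = 3). PPIA stayed first on both scales, at 349 ± 8.05 FPKM (SD, n = 3) and 1277 ± 13.9 CPM per kb (SD, n = 3) in si_GRB2.

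**Figure D3:**
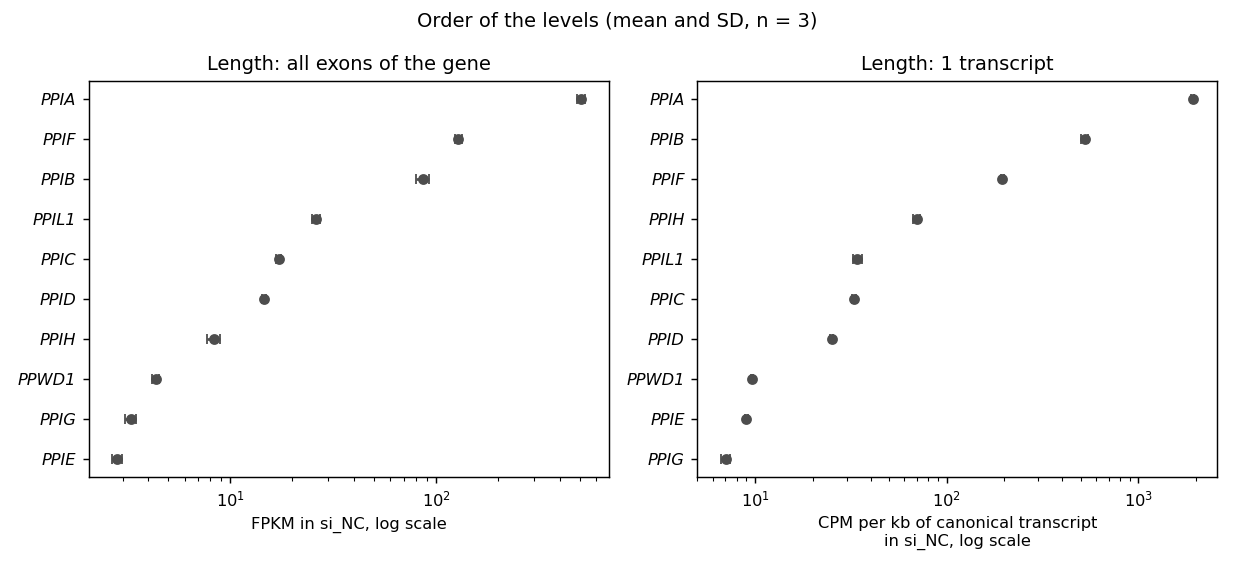
Mean and SD (n = 3, si_NC) of each member's level on a log axis, as the authors' FPKM on the left and as CPM per kilobase of canonical transcript on the right. PPIA is first on both scales, while PPIB and PPIF exchange places and PPIH moves from place 7 to place 4.

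Several members share exonic bases with a gene on the opposite strand. The library kit keeps strand, but the sources used here do not say whether the counting used it. ETFDH shares 1427 bases with PPID and had reads equal to 94.1% of those of PPID, and SNX22 shares 1163 bases with PPIB and had 15.6% of its reads. C6orf89 shares 3 bases with PPIL1 and SNX24 shares 117 with PPIC, at 68.1% and 28.9% of their reads. The values of PPID and PPIB in particular are therefore uncertain if strand was not used. BMP8B (with PPIE) and PPIC-AS1 (with PPIC) had 0.618% and 0.161% of the reads. PPIH shares 794 bases on the opposite strand and PPIE 95 bases on the same strand with annotated genes that had no row in the count table. PPIA, PPIF, PPIG and PPWD1 share no exonic base with another annotated gene.

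The remaining human cyclophilins were listed as well. Of 14 genes, 11 were in the table and 7 were tested, of which 1 rose and 6 did not pass. Among all genes tested, 15.2% rose and 15.5% fell. RANBP2, a nucleoporin with a cyclophilin domain, rose from 75.7 ± 3.52 to 87.7 ± 2.86 CPM (mean ± SD, n = 3), with a log2 fold change of 0.21 (SE 0.04, edgeR adjusted p = 0.000841). On the log2 scale the remaining 6 differed by −0.05 for PPIL2, −0.06 for PPIL3, −0.05 for PPIL4, −0.06 for PPIL6, −0.10 for CWC27 and 0.08 for NKTR, and the groups overlapped in each. PPIL2, PPIL3, PPIL6 and CWC27 changed sign under some settings. The median over the 7 was −0.05.

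FKBPs and parvulins, the other families of prolyl isomerases, were described from the same fit. Of 16 tested genes, 2 rose, 3 fell and 11 did not pass, with a median log2 fold change of −0.01. Over all genes tested the shares were 15.2% higher and 15.5% lower, and nothing about these families is read from the counts. By library totals without TMM, 4 rose and 1 fell. FKBP10, a collagen chaperone, fell by 0.12 on the log2 scale (adjusted p = 0.00307), and FKBP15 (0.18, adjusted p = 0.00372) and FKBP8 (0.15, adjusted p = 0.0127) rose in the edgeR test. The libraries of FKBP8 overlapped between the groups. FKBP1A, which binds tacrolimus as PPIA binds cyclosporin A, had 491 ± 9.88 in si_NC and 497 ± 5.83 in si_GRB2 (CPM, mean ± SD, n = 3). It was singled out after its values were seen, and its log2 fold change of 0.02 did not pass the test (edgeR adjusted p = 0.688).

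Genes that work with the cyclophilins were described in 5 lists with 47 tested genes, of which 14 rose, 12 fell and 21 did not pass (18 rose and 10 fell by library totals without TMM). Of all genes tested, 15.2% rose and 15.5% fell. Their log2 fold changes ran from −0.56 to 0.47, short of 1.5-fold in each. Among 9 partners of PPIA and calcineurin, 3 rose, 1 fell and 5 did not pass, with a median of 0.06. The calcineurin catalytic subunits PPP3CB (log2 fold change 0.47, adjusted p = 5.5e-08) and PPP3CC (0.29, adjusted p = 0.0342) rose, and BSG (basigin, a cell surface receptor for extracellular cyclophilins) fell by 0.13 (adjusted p = 0.00426) in the edgeR test. The third catalytic subunit, PPP3CA, was the other gene that rose (0.19, edgeR adjusted p = 0.00207).

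Among 11 partners of PPIB in the endoplasmic reticulum, 7 rose, 2 fell and 2 did not pass, with a median of 0.13. HSPA5 (BiP, the main chaperone there, 0.20, adjusted p = 1.98e-05) and HYOU1 (0.19, adjusted p = 0.0001) had the largest rises in the edgeR test. CRTAP, which forms a complex with PPIB and P3H1 that modifies collagen, fell from 187 ± 4.38 to 127 ± 3.12 CPM (mean ± SD, n = 3), a difference of −0.56 on the log2 scale (SE 0.03, edgeR adjusted p = 2.06e-09). P3H1 itself was at 2.94 ± 0.121 and 3.66 ± 0.129 CPM (SD, n = 3) and did not pass (log2 fold change 0.31, edgeR adjusted p = 0.104). PDIA4, a disulfide isomerase, fell by 0.09 on the log2 scale (edgeR adjusted p = 0.0339).

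Among 7 HSP90 partners of PPID, 4 rose, 1 fell and 2 did not pass, with a median of 0.06. The rises were led by AHSA1, an activator of the HSP90 ATPase (0.12, adjusted p = 0.00252), and the inducible HSP90AA1 (0.12, adjusted p = 0.00105), and the kinase co-chaperone CDC37 fell by 0.13 on the log2 scale (adjusted p = 0.00254) in the edgeR test. Among 6 mitochondrial partners of PPIF, 5 fell and 1 did not pass, with a median of −0.18. The adenine nucleotide carrier SLC25A4 fell from 13.1 ± 0.775 to 8.95 ± 0.480 CPM (mean ± SD, n = 3), a difference of −0.54 on the log2 scale (SE 0.08, adjusted p = 9.91e-05), and the outer membrane channel VDAC1 fell by 0.20 on the log2 scale (adjusted p = 2.5e-05) in the edgeR test. The si_GRB2 libraries were all lower in each of these 6 genes, as they were in 21.2% of all genes tested, of which 15.5% fell.

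Among 14 spliceosome partners of the nuclear members, 3 fell and 11 did not pass, with a median of −0.05. RBM22, which contacts the catalytic RNA core of the spliceosome, fell by 0.17 on the log2 scale (adjusted p = 0.00134), and SNU13, a U4 snRNA binding protein, fell by 0.15 (adjusted p = 0.00175) in the edgeR test. PRPF3, PRPF4 and PRPF31, proteins of the particle that holds PPIH, had log2 fold changes of 0.07, −0.05 and −0.08 and did not pass.

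**Figure D4:**
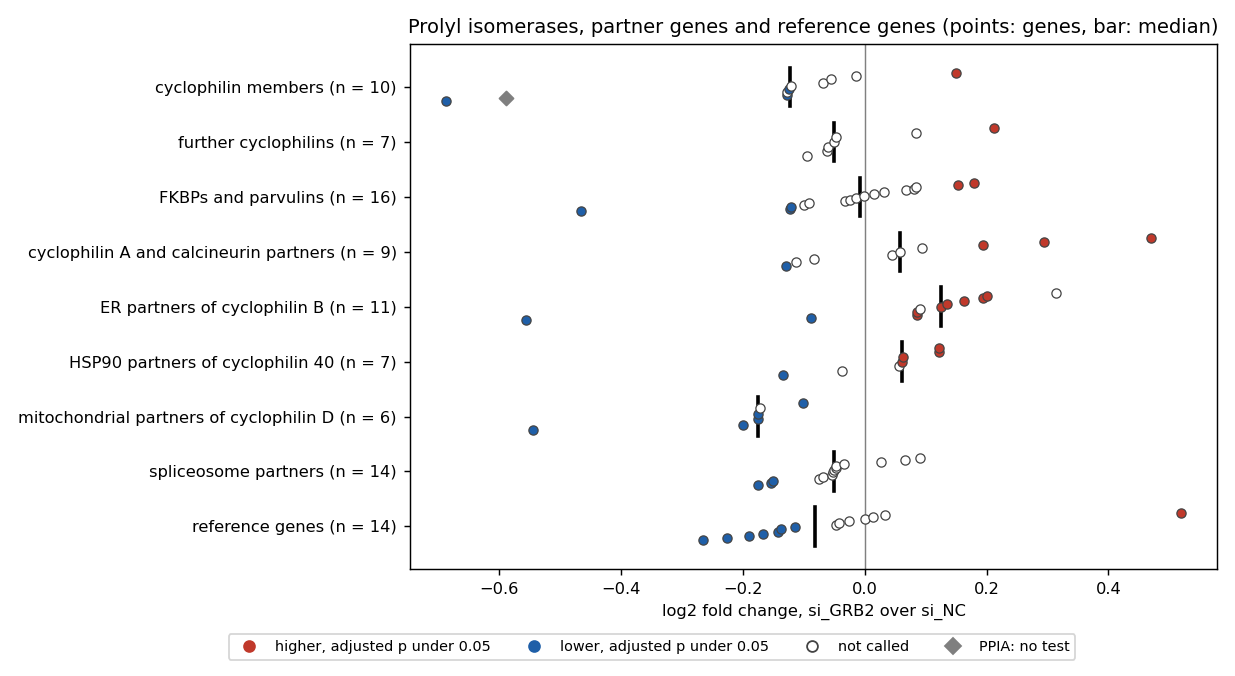
Log2 fold change of si_GRB2 over si_NC for each tested gene of 9 lists (points), with the median of each list as a bar. Calls from edgeR's quasi-likelihood test are in colour, and PPIA is a grey diamond with no test. The medians run from −0.18 for the mitochondrial partners to 0.13 for the partners in the endoplasmic reticulum, and PPWD1 and PPIA lie to the left of every other point.

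PPIA is widely used as a reference gene in RT-PCR, and 14 other common reference genes were measured in the same libraries. Of these, 1 rose, 7 fell and 6 did not pass, with a median log2 fold change of −0.08. The shares over all genes tested were 15.2% higher and 15.5% lower. TFRC, the transferrin receptor, rose from 371 ± 9.96 to 531.5 ± 11.1 CPM (mean ± SD, n = 3), with a log2 fold change of 0.52 (SE 0.03, edgeR adjusted p = 1.04e-09). HPRT1 fell by 0.27 on the log2 scale (adjusted p = 0.00125) in the edgeR test. PPIA's difference of −0.59 was larger than that of each of the 14. The family was chosen because PPIA fell, so this order is a description with no test. The ratio of PPIA to GAPDH reads was 0.579 ± 0.00700 in si_NC and 0.417 ± 0.00463 in si_GRB2 (mean ± SD, n = 3). Against ACTB it was 0.896 ± 0.00527 (SD, n = 3) and 0.607 ± 0.0153 (SD, n = 3). GAPDH and ACTB were singled out after their values were seen, with log2 fold changes of −0.11 (adjusted p = 0.000233) and −0.03 (adjusted p = 0.377) in the edgeR test.

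The 3 genes whose log2 CPM followed PPIA most closely over the 6 libraries, of 10624 genes with a mean of at least 5 CPM, were S100A10, CENPW and SEC23IP. S100A10 encodes a calcium binding protein that partners annexin A2, CENPW a centromere protein, and SEC23IP a protein of endoplasmic reticulum exit sites. Their Pearson correlations with PPIA were 0.9997, 0.9996 and 0.9995, and their log2 fold changes were −1.50, −2.22 and −0.75. The 6 points are the same 2 groups of 3 for every gene, so each coefficient holds the difference between the groups and no p is given.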

How the data were processed

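Poly(A) RNA of 6 SK-BR-3 libraries was analysed. Per the study's methods and the submitters' processing notes, reads were aligned to GRCh38 with HISAT2 and uniquely mapped reads were kept. The authors deposited raw counts per gene and FPKM rounded to 2 decimals. The counting tool, annotation and strand setting are not given in the sources used here. The number of per-sample columns left unused was 0. Counts were scaled by TMM and filtered by filterByExpr (15801 genes left) in edgeR 4.0.16 under R 4.3.3. The groups, 3 libraries each, were set against each other by its quasi-likelihood test, without covariates, with Benjamini-Hochberg adjustment over all genes kept. Standard errors are the estimate over the square root of F. Depth was 24810378 to 28532480 reads, and genes with few reads have larger standard errors. A gene rose or fell at an adjusted p under 0.05. The fit was also run on simulated counts, with means, library sizes and dispersion taken from these libraries. The members and lists were chosen with earlier results of these data known. Named were GRB2, all members, each further tested cyclophilin, per list the genes past 1.5-fold and an adjusted p under 0.01 (the study states a p under 0.01 and no adjustment) and the 2 largest rises and falls among called genes, and the 3 genes most like PPIA. Gene positions, exons and 3′ UTRs came from GENCODE 44 (25289 of 30327 identifiers matched with version, 10 of 10 members), and promoters from RefSeq (GRCh38.p14). Alternatives were DESeq2 1.42.0, its size factors, library totals, upper quartile factors, 2 other filters on low counts, a replicate block, limma 3.58.1 on log2(FPKM + 1) and log2(FPKM + 0.1), a stricter adjusted p, PPIA with its pseudogenes, and each library left out. Python 3.11.15 with pandas 2.3.3 and matplotlib 3.10.9 made the other tables and figures. The fRIP-seq libraries and splicing were not analysed here. The values of 2 genes that the rule names are not reported here.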

Additional observations from a re-analysis of the deposited data

How the results depend on the processing

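PPWD1, PPIB, RANBP2 and GRB2 kept their direction and their side of the threshold in every alternative tried. PPIA, whose fall chose the family, is a description and its log2 fold change ran from −0.61 to −0.54. The other 9 members held 4 calls, which became 2 with DESeq2, with library totals, with both limma fits on log2 FPKM and at an adjusted p under 0.01. PPIE and PPIH were the genes lost in each of these. There were 6 with upper quartile factors or with at least 10 counts in every library, where PPIC and PPIG were gained, and 2 to 4 with single libraries left out (2 without si_GRB2 replicate 2). PPIC passed in 5 of 15 alternatives (adjusted p down to 0.0144 without si_GRB2 replicate 3) and PPIG in 3 of 15 (down to 0.0274 without si_NC replicate 1). PPIA is not counted in these numbers, because its fall chose the family. The correlations of same-numbered libraries' deviations from their group means were 0.31, −0.12 and 0.09, and those of the other pairs ran from −0.35 to 0.30. Deviations within a group of 3 depend on each other, so these values cannot show whether the replicate numbers pair the samples. The replicate block gave 2 calls among the 9. The 5 called FKBPs and parvulins became 1 with both limma fits, 3 at an adjusted p under 0.01 and 3 to 5 with single libraries left out (3 without si_NC replicate 2, si_GRB2 replicate 1 or si_GRB2 replicate 2). The 26 called partner genes became 12 and the 8 called reference genes 3 with both limma fits. Signs turned in genes that were called in no fit. By library totals PPIL2 was at 0.0031 and PPID at 0.0361. PPID was at 0.0274 and 0.0290, and PPIL6 at 0.0011 and 0.0247, with limma at pseudocounts of 1 and 0.1. Without si_GRB2 replicate 1, PPID was at 0.00088, PPIL3 at 0.0108 and CWC27 at 0.0203. PPIL6 was at 0.307 without si_NC replicate 2 and at 0.0169 without si_GRB2 replicate 2. The lowest values with single libraries left out were −0.0352 for PPID, −0.15 for PPIL3, −0.17 for CWC27 and −0.27 for PPIL6. The cause of these shifts was not tested. Depth limits the genes with few reads, such as PPIL6 with 119 reads in all.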
